A study of Mus musculus with 12 samples.

Results

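The 44 genes described here encode the NF-κB pathway: the transcription factor subunits, the inhibitors that hold them back, the feedback genes they induce, and the kinases and adaptors that switch them on. They were taken by gene symbol from a table of 36047 genes, all 44 were found, and all 44 were among the 15249 genes abundant enough to be tested. The genes were read in 2 classes of 22, with the subunits, inhibitors and feedback genes in one class and the kinases and adaptors in the other. The first class also holds 5 induced target genes. The measurement was RNA sequencing of eosinophils from the small intestine (SI) of wild type C57BL/6J mice, labelled female, although the study's methods describe both sexes. The 3 eosinophil subsets were the α4β7+ subset, which carries the gut-homing integrin α4β7 on its surface, the α4β7− CD22− subset, which carries neither marker, and the CD22+ subset, which carries the lectin CD22. The study ordered them as approximately younger, intermediate and older cells. Each subset had 4 libraries, each from 2 pooled mice, and all were live lamina propria cells of the proximal SI, sorted as CD45+ CD11b+ SiglecF+ MHCII− Ly6G− from untreated animals, so a library averages over mice and over the cells of a sort gate.

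In resting cells, NF-κB dimers of the Rel family are held in the cytoplasm by IκB proteins. Receptors for microbial products, interleukin-1 or TNF recruit adaptors and ubiquitin ligases, these activate the kinases TAK1 and IKK, and IKK marks IκB for destruction, which frees the dimers to enter the nucleus. Among the genes then transcribed are the inhibitors themselves, above all *Nfkbia* and *Tnfaip3*, and for that reason their transcripts are widely used as a readout of recent pathway activity. The kinases and adaptors are for the most part made whether or not the pathway is active.

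The values are normalized counts, which the authors obtained by dividing estimated read counts by a library's size factor, and they summed to between 14286474 and 16915755 per library. Fold changes are on the log2(normalized count + 1) scale from limma, fitted to all 15249 genes with all 12 libraries in the model, and a gene was called lower or higher when its fold change was at least 1.5 and its p, adjusted by Benjamini and Hochberg's method within the comparison, did not exceed 0.05. CD22+ replicate 3 had the lowest value of its subset for 26 of the 44 genes, and CD22+ replicate 2 the highest for 22. CD22+ replicate 3 also had the highest summed level of 8 epithelial markers (6108 normalized counts, against 1006 to 3820.4 in the other CD22+ libraries and up to 5742 in the α4β7+ libraries). Values after ± are SDs over the 4 libraries of a subset. The labels do not say that libraries came from separate litters or days, so the p-values cover the spread between these pooled samples only. In bulk samples, fewer cells of a type that makes a transcript and less of it per cell cannot be told apart.

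Against α4β7+ eosinophils, CD22+ eosinophils had 12 of the 44 genes called lower and 4 called higher, where 6.39% and 5.6% of all genes tested were called in those directions. All 12 lower genes were in the class of subunits, inhibitors and feedback genes, and 2 of them were induced targets. In that class 12 of 22 were lower, 2 were higher (*Tnip2* and *Tnfaip2*) and 8 were not called, with a median log2 fold change of -0.83. Among the kinases and adaptors none of 22 was called lower, 2 were higher (*Map3k8* and *Card9*) and 20 were not called, with a median of 0.04. Of those 22, limma gave an unadjusted p under 0.05 with a lower level for 1 (*Birc2*) and with a higher level for 6 (*Chuk*, *Map3k8*, *Map3k14*, *Irak2*, *Traf3* and *Card9*), against 15.9% and 16.1% of all genes. Over all tested genes the median was 0.01, and the difference between the classes was not tested. In α4β7− CD22− eosinophils 10 members were lower and 3 higher than in the α4β7+ subset, against 4.35% and 3.7% of all genes, with class medians of -0.56 and 0.03. Both comparisons use the same α4β7+ libraries. Between the CD22+ and α4β7− CD22− subsets 1 member was lower and none was higher, against 0.393% and 0.21% of all genes. In that comparison limma gave an unadjusted p under 0.05 for 8 lower members and for 1 higher (*Malt1*), against 6.02% and 3.65% of all genes.

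By the adjusted p alone, 15 members were lower and 7 higher in CD22+ against α4β7+ (11.1% and 10% of all genes), 13 were lower and 5 higher in α4β7− CD22− against α4β7+ (7.73% and 7.13%), and 4 were lower and 0 higher in CD22+ against α4β7− CD22− (0.82% and 0.256%). All 4 libraries of CD22+ lay below all 4 of α4β7+ for 13 members and above them for 8, where this held for 11.8% and 11% of all genes. The α4β7− CD22− libraries lay below all α4β7+ libraries for 16 members and above them for 5 (all genes, 9.8% and 8.96%). The CD22+ libraries lay below all α4β7− CD22− libraries for 8 members and above them for 1 (all genes, 3.72% and 2.66%).

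**Figure D1:**
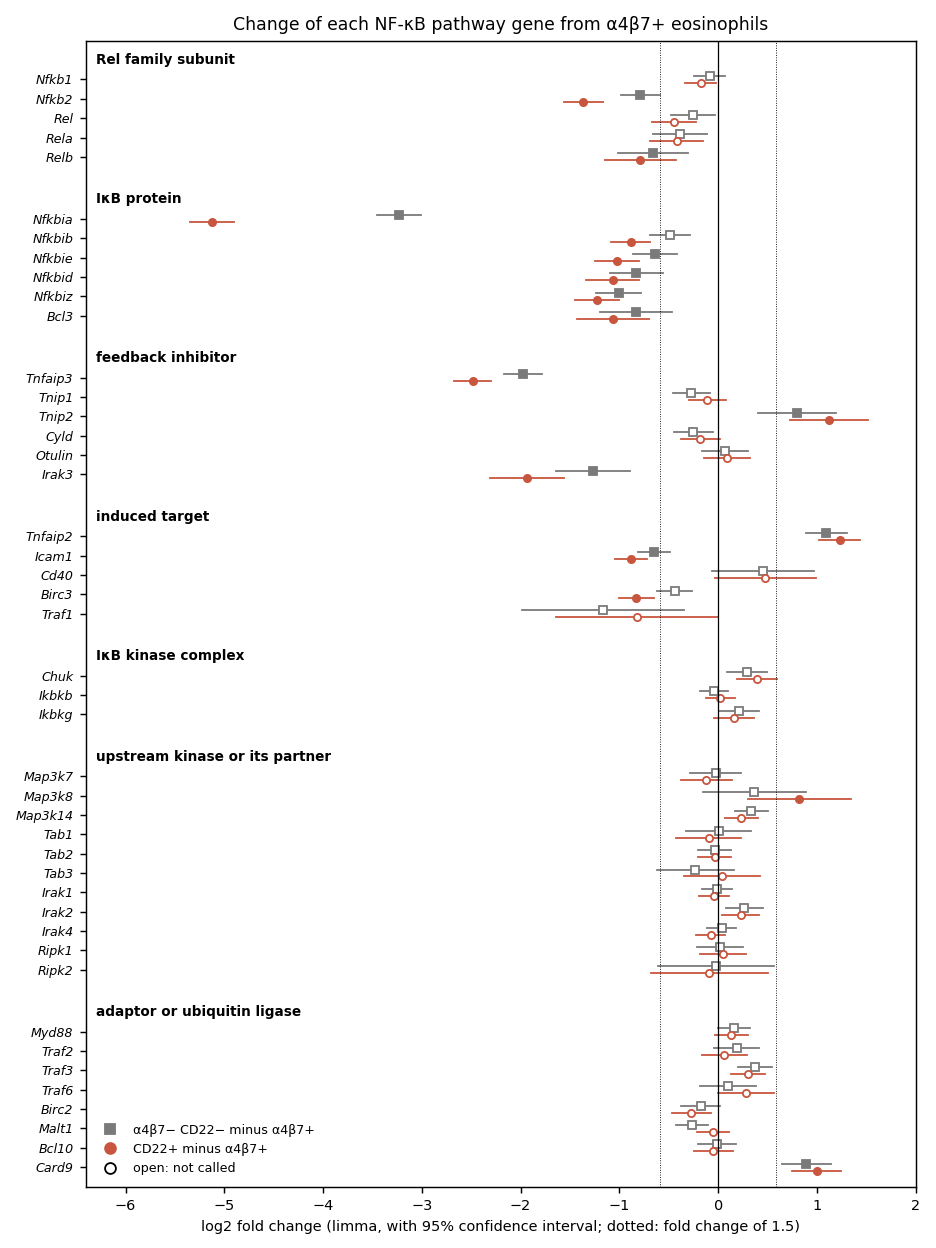
The log2 fold change (x axis) of each of the 44 genes (y axis, by role) is drawn from the α4β7+ subset to the α4β7− CD22− subset (squares) and to the CD22+ subset (circles), with its 95% confidence interval; filled symbols were called and dotted lines mark a fold change of 1.5. All 6 IκB genes lie left of 0 in both comparisons, while the kinases and adaptors cluster around 0, with a median of 0.04 in CD22+ against α4β7+.

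The largest change of all members was that of *Nfkbia* (chr12:55489410-55492647, minus strand), which encodes IκBα, the inhibitor that is destroyed and resynthesized in each round of activation. *Nfkbia* gave 17428, 16325, 15999 and 14785 normalized counts in the 4 α4β7+ libraries, 1877, 1627, 1704 and 1662 in the α4β7− CD22− libraries and 447, 409, 418 and 591 in the CD22+ libraries. The 3 subsets did not overlap, and each step down was many times the spread within a subset. The log2 fold change was -3.23 from α4β7+ to α4β7− CD22− (95% confidence interval -3.46 to -3.01, limma adjusted p = 2.5e-10) and -5.12 from α4β7+ to CD22+ (95% confidence interval -5.35 to -4.90, limma adjusted p = 3.5e-13), a 34.9-fold lower level. The further step from α4β7− CD22− to CD22+ was -1.89 (95% confidence interval -2.12 to -1.67, limma adjusted p = 2.2e-07), and *Nfkbia* was the 1 member called in that comparison. Of all 15249 genes tested, 6 had a lower log2 fold change than *Nfkbia* in CD22+ against α4β7+. None of the 411 genes with at least its mean level did.

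The 2 other classical IκB genes, *Nfkbib* (IκBβ) and *Nfkbie* (IκBε), whose products also retain Rel dimers in the cytoplasm, changed less. For *Nfkbib*, the α4β7+ libraries held 951, 1014, 1052 and 1066 normalized counts, the α4β7− CD22− libraries 810.0, 728, 659 and 717 and the CD22+ libraries 596, 577, 488 and 552. For *Nfkbie*, the α4β7+ libraries held 2292, 2138, 2349.8 and 2121 normalized counts, the α4β7− CD22− libraries 1329, 1425, 1571 and 1389 and the CD22+ libraries 1204, 1218, 864 and 1116. For both genes the libraries were ordered α4β7+, α4β7− CD22−, CD22+ from high to low, with no overlap between subsets. In CD22+ against α4β7+ the log2 fold change of *Nfkbib* was -0.89 (95% confidence interval -1.08 to -0.69, limma adjusted p = 6e-06). That of *Nfkbie* was -1.03 (95% confidence interval -1.25 to -0.81, limma adjusted p = 4.1e-06). In α4β7− CD22− against α4β7+ *Nfkbie* was called lower (-0.64), whereas *Nfkbib* passed the adjusted p but not the fold change (-0.49, limma adjusted p = 0.0022).

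The 3 atypical IκB genes encode nuclear proteins that act with subunits on DNA: *Nfkbid* (IκBNS), *Nfkbiz* (IκBζ), which is required for induction of a set of secondary response genes, and *Bcl3*. *Nfkbiz* gave 13257, 11569, 12121 and 11910.5 normalized counts in the 4 α4β7+ libraries, 6358, 6411, 5842 and 5661 in the α4β7− CD22− libraries and 5858, 6154, 4128 and 4919 in the CD22+ libraries. *Nfkbid* gave 3323, 2886, 2732 and 3337 normalized counts in the 4 α4β7+ libraries, 1848, 1713, 1773 and 1556 in the α4β7− CD22− libraries and 1783, 1643, 1121 and 1383 in the CD22+ libraries. *Bcl3* gave 402, 471, 589.9 and 599 normalized counts in the 4 α4β7+ libraries, 309.9, 232, 241 and 379.8 in the α4β7− CD22− libraries and 238, 234, 224 and 275 in the CD22+ libraries. For all 3 genes every α4β7+ library lay above every library of the other subsets, and the α4β7− CD22− and CD22+ subsets overlapped. *Nfkbiz* had a log2 fold change of -1.01 in α4β7− CD22− and -1.23 in CD22+ against α4β7+ (limma adjusted p = 1.3e-05 and 8.4e-07). The values were -0.83 and -1.07 for *Nfkbid* (limma adjusted p = 0.00037 and 1.9e-05), and -0.83 and -1.07 for *Bcl3* (limma adjusted p = 0.0039 and 0.00033). *Nfkbib* and *Nfkbiz*, with *Tnfaip3* below, are among the inflammation genes the study chose to display from these libraries, so their direction is not independent of that choice.

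Levels were also divided by the length of each gene's longest annotated principal transcript. This sets different genes side by side only roughly, since the transcripts expressed may have other lengths. On this scale *Nfkbia* was the most abundant of the 44 genes in α4β7+ eosinophils (10224 ± 689 normalized counts per kilobase, SD, n = 4). It ranked 7th in α4β7− CD22− (1088 ± 70.4) and 26th in CD22+ eosinophils (295 ± 53.6). It made up 62.4 ± 1.66% of the summed per-kilobase level of the 6 IκB genes in α4β7+, 24.1 ± 0.884% in the α4β7− CD22− subset and 9.51 ± 2.09% in the CD22+ subset. *Nfkbiz* ranked 4th in all 3 subsets and was the most abundant IκB transcript in the α4β7− CD22− and CD22+ subsets (1475 ± 90.7 and 1279 ± 224). The summed level of the 3 classical IκB genes over that of the 5 Rel family genes was 3.66 ± 0.268 in α4β7+ (range 3.27 to 3.84), 0.849 ± 0.0287 in α4β7− CD22− (range 0.822 to 0.883) and 0.491 ± 0.0468 in CD22+ libraries (range 0.44 to 0.546). The ranges of this ratio did not overlap, and no test was run on it. It is a ratio of transcripts and says nothing of protein.

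**Figure D2:**
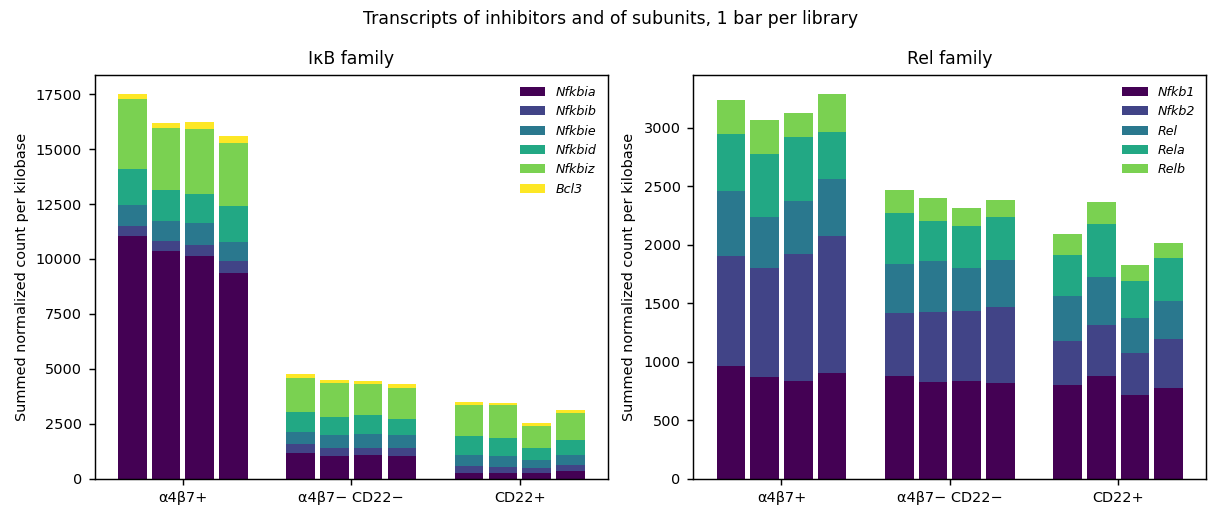
Each bar is 1 library and stacks the normalized counts per kilobase of transcript (y axis) of the 6 IκB genes (left) or the 5 Rel family genes (right) by subset (x axis). *Nfkbia* falls from 10224 to 1088 and 295 per kilobase, while the Rel family sum goes from 3178 to 2389 and 2075.

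The sequences before the start sites of several members hold matches to the kappaB consensus, the 10-base motif that NF-κB dimers bind. It was searched on both strands in windows of 300 bases, from 250 before to 50 after each RefSeq start site (build GRCm38.p6), where overlapping matches were all kept. A match was present in the windows of 5.14% of the 27025 genes in the promoter table. It was present for 9 of the 18 genes with a window there in the class of subunits, inhibitors and feedback genes, and for 3 of 17 kinase and adaptor genes. Within the first class, none of the 4 induced targets with a window held a match. *Nfkb1*, *Relb*, *Nfkbiz*, *Cd40*, *Ikbkb*, *Map3k8*, *Tab1*, *Ripk2* and *Malt1* had no entry. A match is a description of letters and neither a bound site nor a cause. The stretches below come from 4 inhibitor or subunit genes that were lower in the CD22+ subset and from 3 genes with a match whose levels were not called different, and are written 5′ to 3′ on the gene's own strand with the motif matches in capitals.
Nfkbia: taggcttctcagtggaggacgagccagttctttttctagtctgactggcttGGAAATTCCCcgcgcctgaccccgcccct
Tnfaip3: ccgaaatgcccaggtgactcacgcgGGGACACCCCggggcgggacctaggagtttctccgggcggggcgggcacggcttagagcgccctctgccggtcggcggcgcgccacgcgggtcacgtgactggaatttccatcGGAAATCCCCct
Nfkbie: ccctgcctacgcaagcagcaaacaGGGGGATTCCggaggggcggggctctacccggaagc
Nfkb2: gtcacGGGAATTCCCCccctcggggggccg
Tnip1: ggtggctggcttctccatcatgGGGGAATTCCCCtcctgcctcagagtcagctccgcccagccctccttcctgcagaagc
Cyld: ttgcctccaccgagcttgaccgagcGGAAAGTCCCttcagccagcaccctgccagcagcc
Traf3: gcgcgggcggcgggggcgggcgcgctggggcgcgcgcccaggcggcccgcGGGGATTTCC
The *Nfkbia* stretch is chr12:55492648-55492727 on the minus strand and ends on the base before the start, with its match at bases -29 to -20 from the start. The *Tnfaip3* stretch is chr10:19015411-19015560 on the minus strand, with matches at -125 to -116 and at -12 to -3. The *Nfkbie* stretch is chr17:45555570-45555629 on the plus strand, and its match lies at -106 to -97. The *Nfkb2* stretch is chr19:46304693-46304722 on the plus strand, and its capitals hold 3 matches that overlap each other between -39 and -29. The *Tnfaip3* and *Nfkb2* stretches precede the RefSeq starts used here but lie inside the gene bounds of the GENCODE annotation (chr10:19000910-19015657 and chr19:46304320-46312385). The *Tnip1* stretch is chr11:54962941-54963020 on the minus strand and the *Cyld* stretch is chr8:88696848-88696907 on the plus strand. The *Traf3* stretch is chr12:111166310-111166369 on the plus strand, with a match that ends on the base before the start. Of the 10 members lower in the CD22+ subset that had a window, 6 held a match (60%), beside 6 of 22 members not called (27.3%), 74 of 711 for all genes called lower (10.4%) and 669 of 11143 for all genes tested (6%). The 3 members higher in the CD22+ subset that had a window held no match. None of these shares was tested.

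Of the 5 Rel family subunits, the 2 that belong mainly to the noncanonical branch were lower in both comparisons with α4β7+ (all genes, 4.35% in α4β7− CD22− and 6.39% in CD22+). *Nfkb2* encodes the precursor that is processed in that branch, and *Relb* encodes its partner. *Nfkb2* gave 2942, 2927, 3397 and 3679.9 normalized counts in the 4 α4β7+ libraries, 1708, 1882, 1858 and 2029.9 in the α4β7− CD22− libraries and 1194, 1367, 1129 and 1318 in the CD22+ libraries. *Relb* gave 639, 636, 448 and 718 normalized counts in the 4 α4β7+ libraries, 436, 427, 349 and 321 in the α4β7− CD22− libraries and 409.7, 407, 303 and 289 in the CD22+ libraries. The 3 subsets did not overlap for *Nfkb2*, whereas for *Relb* the libraries of the α4β7− CD22− and CD22+ subsets lay together below the α4β7+ libraries. *Nfkb2* had a log2 fold change of -0.79 in α4β7− CD22− and -1.37 in CD22+ against α4β7+ (limma adjusted p = 4.3e-05 and 7.9e-08). Between the CD22+ and α4β7− CD22− subsets it passed the adjusted p but came just short of the fold change (-0.58, or 1.49-fold, limma adjusted p = 0.0062), and it was called when α4β7− CD22− replicate 1, CD22+ replicate 2 or CD22+ replicate 4 was left out. *Relb* had -0.66 and -0.79 against α4β7+ (limma adjusted p = 0.015 and 0.0032). The first of these calls was lost without α4β7+ replicate 4 (-0.57) and without α4β7− CD22− replicate 4 (-0.58).

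The subunits of the canonical branch were not called in any comparison. *Nfkb1* averaged 3675 ± 232, 3456 ± 103 and 3256 ± 284 normalized counts in α4β7+, α4β7− CD22− and CD22+ eosinophils (n = 4 each). *Rel* averaged 3615 ± 394, 3024 ± 186 and 2660.5 ± 383 in the same order, and *Rela*, the main activating subunit, 1343 ± 186, 1022 ± 110.3 and 1004 ± 161. In CD22+ against α4β7+, *Rel* (-0.45, 95% confidence interval -0.67 to -0.23, limma adjusted p = 0.0058) and *Rela* (-0.42, 95% confidence interval -0.69 to -0.15, limma adjusted p = 0.028) passed the adjusted p but not the fold change. The interval of *Nfkb1* ran from -0.33 to -0.02. *Nfkb1* had the highest per-kilobase level of the 5 in the α4β7− CD22− and CD22+ subsets (839 ± 25 and 791 ± 69), and *Nfkb2* in the α4β7+ subset (1030.4 ± 117, beside 893 ± 56.4 for *Nfkb1*). The 4 α4β7+ libraries of these 2 genes overlap on that scale.

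The feedback inhibitors did not move as 1 group. *Tnfaip3* (chr10:19000910-19015657, minus strand) encodes the ubiquitin-editing enzyme that ends signaling from TNF and Toll-like receptors, and *Irak3* encodes a pseudokinase that restrains the interleukin-1 and Toll-like receptor complex. *Tnfaip3* gave 24049, 23636, 23424 and 25600.2 normalized counts in the 4 α4β7+ libraries, 6862, 5409, 6933 and 5537 in the α4β7− CD22− libraries and 4577, 4629, 4057 and 4028 in the CD22+ libraries. *Irak3* gave 658, 525, 666 and 661 normalized counts in the 4 α4β7+ libraries, 325, 229, 257 and 237 in the α4β7− CD22− libraries and 179, 160.1, 116 and 211 in the CD22+ libraries. Both genes were highest in every α4β7+ library and lowest in every CD22+ library. *Tnfaip3* had a log2 fold change of -1.98 in α4β7− CD22− (95% confidence interval -2.16 to -1.79, limma adjusted p = 1.1e-08) and -2.49 in CD22+ against α4β7+ (95% confidence interval -2.67 to -2.30, limma adjusted p = 2.8e-10). For *Irak3* the values were -1.27 (95% confidence interval -1.64 to -0.89, limma adjusted p = 0.00017) and -1.93 (95% confidence interval -2.31 to -1.56, limma adjusted p = 1.4e-06). From α4β7− CD22− to CD22+, *Tnfaip3* passed the adjusted p alone (-0.51, limma adjusted p = 0.01), while *Irak3* passed the fold change alone (-0.67, limma adjusted p = 0.1).

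*Tnip2* rose instead. Its product ABIN-2 binds the Nfkb1 precursor and the kinase encoded by *Map3k8*, and keeps that kinase stable. *Tnip2* gave 117, 112, 128 and 159 normalized counts in the 4 α4β7+ libraries, 196, 286, 163 and 273 in the α4β7− CD22− libraries and 291, 279, 242 and 309 in the CD22+ libraries. The α4β7+ libraries were the 4 lowest, and the other subsets overlapped. The log2 fold change was 0.80 in α4β7− CD22− (limma adjusted p = 0.009) and 1.12 in CD22+ against α4β7+ (95% confidence interval 0.72 to 1.52, limma adjusted p = 0.00045). The remaining feedback inhibitors were not called. *Tnip1*, which encodes the related ABIN-1, averaged 1182 ± 105, 977 ± 48.9 and 1093 ± 92 normalized counts in α4β7+, α4β7− CD22− and CD22+ eosinophils. The deubiquitinase gene *Cyld* averaged 5115 ± 569, 4277 ± 256 and 4507 ± 488 in the same order, and *Otulin*, a deubiquitinase of linear chains, stayed between 434 and 588 over all 12 libraries.

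Among the 5 genes listed as induced targets, 2 were lower and 1 was higher in CD22+ against α4β7+ (all genes, 6.39% and 5.6%). *Icam1* encodes an adhesion molecule that leukocytes bind through their integrins, and *Birc3* encodes the ubiquitin ligase cIAP2. *Icam1* gave 4701, 4163, 4815 and 4853 normalized counts in the 4 α4β7+ libraries, 2761, 3243, 2962 and 2872 in the α4β7− CD22− libraries and 2671, 2611, 2334 and 2401 in the CD22+ libraries. *Birc3* gave 15109, 12062, 15636 and 15254 normalized counts in the 4 α4β7+ libraries, 9958, 10508, 11686 and 10458 in the α4β7− CD22− libraries and 8468, 8057, 8305 and 7688 in the CD22+ libraries. For both genes every α4β7+ library lay above every α4β7− CD22− library, and every α4β7− CD22− library above every CD22+ library. Against α4β7+, *Icam1* had a log2 fold change of -0.65 in α4β7− CD22− and -0.89 in CD22+ (limma adjusted p = 4.1e-05 and 8.4e-07). *Birc3* was called lower in CD22+ (-0.83, limma adjusted p = 3.6e-06, beside -0.44 and 0.002 in α4β7− CD22−, under the fold change). Up to 57.5% of a *Birc3* transcript matched other annotated genes, most of all *Gm43392*, at an identity of at least 90%, so reads may have been split between them.

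*Tnfaip2*, named for its induction by TNF and involved in membrane protrusions, went the other way. *Tnfaip2* gave 4907, 5063, 4471 and 4878 normalized counts in the 4 α4β7+ libraries, 10826, 10555, 10159 and 9728 in the α4β7− CD22− libraries and 12675, 11839, 8879.9 and 12245 in the CD22+ libraries. Every α4β7+ library was below every other library. The log2 fold change was 1.10 in α4β7− CD22− (95% confidence interval 0.89 to 1.30, limma adjusted p = 2.6e-06) and 1.23 in CD22+ against α4β7+ (95% confidence interval 1.02 to 1.43, limma adjusted p = 3.1e-07). Per kilobase, *Tnfaip2* ranked 8th of the 44 genes in α4β7+ and 2nd in both other subsets. *Cd40* and *Traf1* were sparse, at 61.1 to 140.3 and 27.5 to 185 normalized counts over the 12 libraries, and were not called. The estimate of *Traf1* in α4β7− CD22− against α4β7+ was -1.17 (95% confidence interval -1.99 to -0.35, limma adjusted p = 0.056), and the libraries of these 2 subsets did not overlap.

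**Figure D3:**
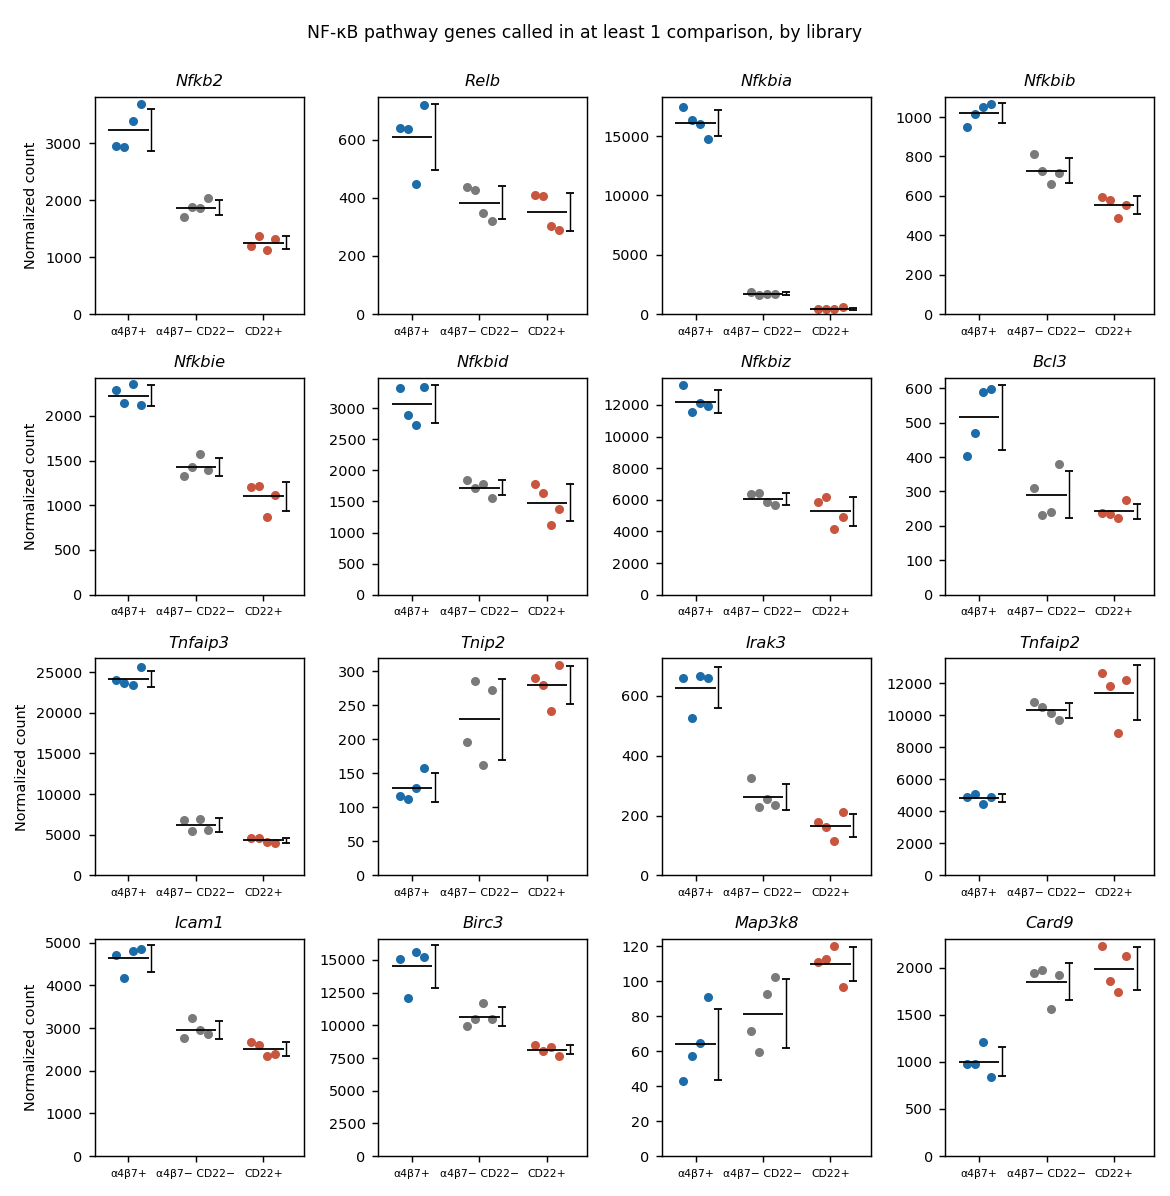
Normalized counts (y axis, from 0) of the 16 genes called in any comparison are drawn with 1 point per library for each subset (x axis), the mean as a line and the SD as a bar beside it. *Tnip2*, *Tnfaip2*, *Map3k8* and *Card9* are the genes whose CD22+ libraries all lie above the α4β7+ libraries, and the other 12 genes show the reverse order.

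None of the 3 genes of the IκB kinase complex, on which these signals converge, was called in any comparison. *Ikbkb*, the catalytic subunit of the canonical branch, averaged 2817 ± 96.3, 2726 ± 76.9 and 2865 ± 208 normalized counts in α4β7+, α4β7− CD22− and CD22+ eosinophils, and its log2 fold change in CD22+ against α4β7+ had an interval of -0.12 to 0.16. The regulatory subunit gene *Ikbkg* had 0.16 (95% confidence interval -0.05 to 0.36). *Chuk*, the catalytic subunit of the noncanonical branch, was 0.39 (95% confidence interval 0.19 to 0.59, limma adjusted p = 0.008), with no CD22+ library as low as any α4β7+ library, but under the fold change. Up to 39% of a *Chuk* transcript matched other annotated genes, most of all *Gm17809*.

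Of the 11 upstream kinases and their partners, 1 was called, in CD22+ against α4β7+, where 5.6% of all genes were called higher. *Map3k8* encodes a kinase that is bound by the Nfkb1 precursor and links NF-κB signaling to the MAP kinase ERK. *Map3k8* gave 42.8, 57.4, 64.6 and 91.3 normalized counts in the 4 α4β7+ libraries, 71.5, 59.4, 92.9 and 102 in the α4β7− CD22− libraries and 111, 112, 120.2 and 96.8 in the CD22+ libraries. These were low levels, and the CD22+ libraries lay above all α4β7+ libraries. CD22+ against α4β7+ gave a log2 fold change of 0.82 (95% confidence interval 0.30 to 1.34, limma adjusted p = 0.026). This call was lost when any of 5 libraries was left out (α4β7+ replicates 1 and 2 and CD22+ replicates 1, 2 and 3), with limma adjusted p between 0.057 and 0.078.

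The other upstream kinases and partners were not called in any comparison. In CD22+ against α4β7+, the log2 fold change of *Map3k7*, which encodes TAK1, was -0.12 (95% confidence interval -0.38 to 0.14). *Tab2*, its main binding partner, had -0.03 (95% confidence interval -0.20 to 0.13). *Irak1* had -0.04 (95% confidence interval -0.20 to 0.11) and *Irak4*, the kinase that acts before it, -0.07 (95% confidence interval -0.22 to 0.07). *Ripk1*, which is recruited to the TNF receptor, had 0.05 (95% confidence interval -0.18 to 0.28). For these 5 genes the interval excludes a fold change of 1.5 in either direction. *Irak2*, a later partner in the same receptor complex, averaged 2337 ± 273, 2797 ± 138 and 2727 ± 228 normalized counts in α4β7+, α4β7− CD22− and CD22+ libraries. *Map3k14*, whose product NIK starts the noncanonical branch, averaged 1003 ± 69.5, 1264 ± 39 and 1179 ± 79.3, and passed the adjusted p but not the fold change in both comparisons with α4β7+ (0.34 and 0.23, limma adjusted p = 0.0094 and 0.046). *Tab1*, *Tab3* and *Ripk2* were less abundant, with log2 fold changes between -0.09 and 0.04 in CD22+ against α4β7+. For *Irak2* and *Map3k7*, up to 57.8% and 30.1% of a transcript matched other annotated genes.

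Of the 8 adaptors and ubiquitin ligases, *Card9* was called, as higher in both comparisons with α4β7+ (all genes, 3.7% in α4β7− CD22− and 5.6% in CD22+). It encodes the adaptor that joins C-type lectin receptors to the proteins encoded by *Bcl10* and *Malt1*. *Card9* gave 980.0, 979, 1207 and 839.6 normalized counts in the 4 α4β7+ libraries, 1941, 1981, 1565 and 1922 in the α4β7− CD22− libraries and 2234, 1861, 1741 and 2129.6 in the CD22+ libraries. The α4β7+ libraries were the 4 lowest. The log2 fold change was 0.89 in α4β7− CD22− (95% confidence interval 0.64 to 1.14, limma adjusted p = 0.00011) and 1.00 in CD22+ against α4β7+ (95% confidence interval 0.74 to 1.25, limma adjusted p = 2e-05). Its partners were not called. In CD22+ against α4β7+, *Bcl10* had -0.05 (95% confidence interval -0.25 to 0.14) and *Malt1* -0.05 (95% confidence interval -0.22 to 0.11). In α4β7− CD22− against α4β7+, *Malt1* passed the adjusted p but not the fold change (-0.26, 95% confidence interval -0.43 to -0.10, limma adjusted p = 0.031), and its α4β7− CD22− libraries lay below all α4β7+ libraries. Up to 35.7% of a *Bcl10* transcript matched other annotated genes, most of all *Gm6141*. Beyond *Bcl10*, *Birc3*, *Chuk*, *Irak2* and *Map3k7*, no member had more than 15.8% of a transcript matched by other genes.

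The adaptors of the interleukin-1, Toll-like and TNF receptors were not called. *Myd88*, the common adaptor of Toll-like and interleukin-1 receptors, was the most abundant of the class per kilobase in every subset (1718 ± 141, 1919 ± 136 and 1881 ± 108 normalized counts per kilobase in α4β7+, α4β7− CD22− and CD22+), and its log2 fold change in CD22+ against α4β7+ was 0.13 (95% confidence interval -0.03 to 0.30). The ubiquitin ligase genes *Traf2* and *Traf6* had 0.06 (95% confidence interval -0.17 to 0.29) and 0.28 (95% confidence interval -0.00 to 0.57). *Traf3*, which keeps NIK low in resting cells, had log2 fold changes under the fold change threshold in both subsets (0.38, 95% confidence interval 0.20 to 0.55, and 0.30, 95% confidence interval 0.13 to 0.47, limma adjusted p = 0.0054 and 0.014). *Birc2*, which encodes cIAP1, passed the adjusted p alone in CD22+ (-0.28, 95% confidence interval -0.47 to -0.08, limma adjusted p = 0.046).

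The class medians were also read per library. When each gene was centered on its mean log2 value over the 12 libraries, the median subunit, inhibitor or feedback gene lay at 0.39 to 0.51 in the 4 α4β7+ libraries, -0.13 to -0.05 in the α4β7− CD22− libraries and -0.49 to -0.25 in the CD22+ libraries. The ranges did not overlap, and the lowest value was that of CD22+ replicate 3. The median kinase or adaptor lay at -0.10 to -0.02 in the α4β7+ libraries, -0.01 to 0.06 in the α4β7− CD22− libraries and -0.05 to 0.16 in the CD22+ libraries. In this class every α4β7+ library lay below every α4β7− CD22− library, and the CD22+ libraries overlapped both other subsets. That separation was very narrow, with the highest α4β7+ value at -0.016 and the lowest α4β7− CD22− value at -0.013. The pooled SD of this class median between replicates was 0.063. Without CD22+ replicate 3, the class median of subunits, inhibitors and feedback genes went from -0.21 to -0.11 in CD22+ against α4β7− CD22−.

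**Figure D4:**
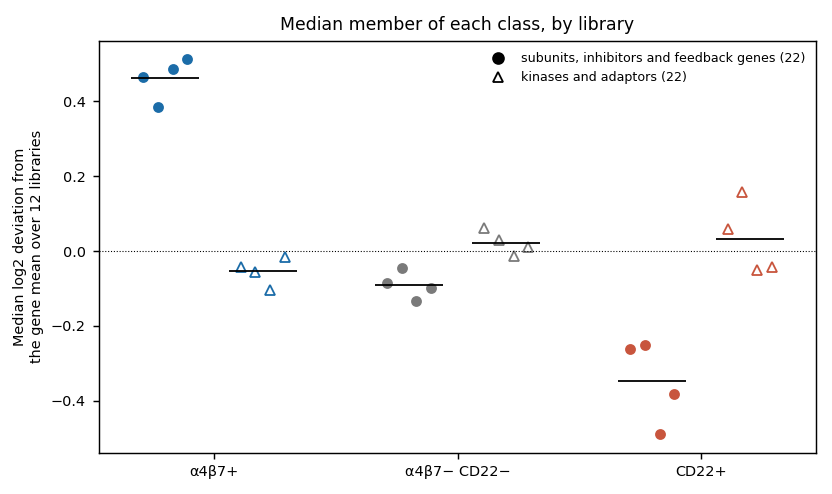
Each point is the median, over the 22 genes of a class, of the log2 deviation from the gene's mean over 12 libraries (y axis), for 1 library of a subset (x axis), with lines at the subset means. Subunits, inhibitors and feedback genes (filled circles) step down from 0.39 to 0.51 in α4β7+ to -0.49 to -0.25 in CD22+, whereas kinases and adaptors (open triangles) stay between -0.10 and 0.16.

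Other genes of the pathway, taken from a list of 41 receptors, further adaptors, ubiquitin enzymes and IκB degradation factors, are given by their counts. In CD22+ against α4β7+, 4 were called lower, 3 higher and 34 were not called, where 6.39% and 5.6% of all genes were called lower and higher. *Il1rl1*, the receptor for interleukin-33, averaged 458 ± 132, 51.7 ± 13.4 and 48.9 ± 34.4 normalized counts in α4β7+, α4β7− CD22− and CD22+ eosinophils, and its log2 fold change in CD22+ was -3.40 (95% confidence interval -4.21 to -2.58, limma adjusted p = 1.2e-05). *Zc3h12a*, an RNase that degrades inflammatory transcripts, and *Tank*, an adaptor that binds TRAF proteins, were lower by log2 -1.06 and -0.79 (limma adjusted p = 7.1e-05 and 7.2e-05). *Tnfrsf1a*, the main TNF receptor, rose from 1287 ± 102 to 2489 ± 405 normalized counts (0.94, limma adjusted p = 2e-05). *Traf4* was higher by 0.81 (limma adjusted p = 0.0043), as was *Il1r2*, the decoy receptor for interleukin-1, by 0.67 (limma adjusted p = 0.014). The CD22+ libraries of *Il1r2* overlapped the α4β7+ libraries, and without α4β7+ replicate 2 the call was lost (log2 fold change 0.53, limma adjusted p = 0.045). None of the 5 IκB degradation factors was called in CD22+ against α4β7+, and their estimates lay between -0.32 and 0.05.

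Of 29 known target genes that are no members, 28 were tested. In CD22+ against α4β7+ 14 were lower, 1 was higher and 13 were not called, with a median log2 fold change of -0.70, where 6.39% and 5.6% of all genes were lower and higher. In α4β7− CD22− against α4β7+ 11 were lower, 2 were higher and 15 were not called, with a median of -0.48, where 4.35% and 3.7% of all genes were. *Il6* gave 189, 126, 203 and 226 normalized counts in α4β7+ and 6.82, 3.36, 7.17 and 12.5 in α4β7− CD22− libraries, and 0 to 1.27 in CD22+ libraries, where no library reached 3 reads (limma adjusted p = 7.5e-08). *Cxcl1*, which recruits neutrophils, averaged 50.7 ± 23.5, 5.27 ± 4.22 and 6.86 ± 8.97 in the 3 subsets (log2 fold change in CD22+ -3.22, limma adjusted p = 0.01, and log2 fold change -3.60 with limma adjusted p = 0.06 at a pseudocount of 0.1, where the call is lost). CD22+ replicate 4 held 20.2 normalized counts of *Cxcl1*, against 1.32 to 4.23 in the other CD22+ libraries, and CD22+ replicates 2 and 3 were under 3 reads. With each library left out, the log2 fold change of *Cxcl1* in CD22+ ran from -3.91 to -2.84. *Ier3*, an early response gene, averaged 153 ± 37.7, 25 ± 7.05 and 16.8 ± 9.14 (-3.21, limma adjusted p = 8.8e-06). The target gene called higher in CD22+ was *Il1b*, which encodes an inflammatory cytokine and rose from 17294 ± 2297 to 30634 ± 4515 and 33447 ± 5700.4 normalized counts (0.82 in α4β7− CD22− and 0.94 in CD22+, limma adjusted p = 0.00064 and 0.00011). The chemokine gene *Ccl4*, chosen for mention after its values were seen, was the other target gene called higher in α4β7− CD22− (449 ± 149.7 to 982 ± 260.1 normalized counts, log2 fold change 1.16, limma adjusted p = 0.0084), and was not called in CD22+ (649 ± 188 normalized counts). A direction shared by targets and members in this comparison comes from the same libraries.

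Genes of other lists were called too, and their counts in CD22+ against α4β7+ stand beside 6.39% and 5.6% of all genes called lower and higher. Of 20 genes that respond to tissue dissociation, 6 were lower in CD22+ against α4β7+ (*Jun*, *Junb*, *Jund*, *Fosb*, *Ier2* and *Dusp1*) and none was higher, with a median of -0.25. The other 14 were not called, among them *Fos* (-0.09), *Egr1* (0.02) and *Nr4a1* (-0.08), and 4 of the 14 passed the adjusted p alone. The CD22+ libraries lay below all α4β7+ libraries for 7 dissociation genes and above them for 3 (all genes, 11.8% and 11%). In α4β7− CD22− against α4β7+ 4 were called lower and none higher (all genes, 4.35% and 3.7%). Per library the 20 genes summed to 175758 to 219399 (α4β7+), 178757 to 201105 (α4β7− CD22−) and 135867 to 160418 normalized counts (CD22+). Of 8 eosinophil markers 5 were lower in CD22+ (*Ccr3*, *Il5ra*, *Prg2*, *Epx* and *Alox15*), with *Siglecf* at 7534 ± 449, 7827 ± 566 and 7339.8 ± 369.8 in the 3 subsets, and the list summed to 113557 to 128444, 90744 to 98711 and 71435 to 78805. Of 6 neutrophil markers, *S100a8* and *Camp* were under 3 in every library and *Ly6g* was at most 10.8. Of the 3 neutrophil markers tested, 2 were lower in CD22+ (*Retnlg*, from 18828 ± 3509 to 3053 ± 349, and *S100a9*, from 19 ± 16.3 to 2.87 ± 2.92) and *Ngp* was higher (from 31.6 ± 4.27 to 143 ± 12.9), and the list summed to 14380.2 to 22009, 5962 to 8016 and 2849.8 to 3664. Of 6 T cell markers 3 were lower in α4β7− CD22− against α4β7+ (all genes, 4.35%) and none was called in CD22+, with summed levels of 915 to 1588, 579 to 849 and 889 to 1332. No macrophage, dendritic, B or plasma, epithelial, Paneth or stromal marker was called in CD22+ against α4β7+. The part of the dissociation genes, of the other eosinophil genes and of neutrophil and T cell transcripts in the results for NF-κB members was not tested.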

How the data were processed

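The deposited signal values are normalized counts for 12 RNA sequencing libraries, 4 per eosinophil subset. From sorted eosinophils of 2 pooled mice per library, the authors prepared stranded total RNA libraries, trimmed the reads with Trimmomatic 0.39, estimated transcript counts against mm10 (GRCm38) with kallisto 0.46.1 and normalized them with DESeq2 1.38.2, per the submitters' processing notes and the study's methods. Whole reads could not be recovered, so count models were not used, and the depth could only be estimated, from the most frequent low value of each library, at 13858261 to 17321909 reads. Because kallisto shares reads among similar transcripts, members with near copies are uncertain. Such copies were found with BLAST 2.17.0 (identity of at least 90%).

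limma 3.58.1 (R 4.3.3) was run, with a variance trend, a pseudocount of 1 and 3 subsets in 1 model, on genes whose mean normalized count exceeded 10. On simulated data for CD22+ against α4β7+ with 15033 genes, of which 200 were changed, 77% of those changed by 1 log2 unit and 92% of those changed by 2 were called, as were 8 of 14833 unchanged genes. Lengths came from the GENCODE annotation, promoters from RefSeq. Tables and figures used Python 3.11.15, pandas 2.3.3 and matplotlib 3.10.9.

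Between the CD22+ and α4β7− CD22− subsets, libraries of 1 number moved alike (correlations of deviations from the subset means 0.135 to 0.203 over 4 pairs, all above 0.1). There the numbers were taken to pair libraries from the data alone, since the labels do not say what a number shares. The p-values given for that comparison come from the fit without a replicate block, so they do not use this pairing.

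The members, the gene lists, their roles and the tests were chosen with earlier results of these data known. Members called in any comparison with a mean of at least 50 are given in every library, and uncalled members with a mean of at least 500 by means or intervals. From the pathway and target lists, up to 3 called genes per direction of CD22+ against α4β7+ with a mean of at least 50 in 1 subset are named, and genes of the dissociation and marker lists are named outside this rule, after their values were seen. The alternatives were other pseudocounts (0.1 and 10), other filters (none and 50), other scalings (75th percentile and quantile), a fit with no trend, a fit of 2 subsets, a replicate block, calls by adjusted p alone, and each library left out.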

Additional observations from a re-analysis of the deposited data

Results flagged for a closer look

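The 5 values below were far from the other 3 libraries of their subset, meaning that the gap to the nearest library took up more of the subset's range than 95% of samples of 4 would show by chance. Chance gives about 1 such flag in 20 groups, and 5 of the 132 groups of 4 libraries tested here (44 genes in 3 subsets) were flagged.

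*Irak3* was low in α4β7+ replicate 2, at 525 normalized counts, with the other α4β7+ libraries at 658 to 666. *Birc3* was low in the same library, at 12062, with the others at 15109 to 15636. *Traf1* was high in CD22+ replicate 4, at 146, with the others at 50.9 to 60.9, and *Irak1* was high in the same library, at 1965, with the others at 1652 to 1676. *Card9* was low in α4β7− CD22− replicate 3, at 1565, with the others at 1922 to 1981. The calls of *Irak3*, *Birc3* and *Card9* did not change with these libraries left out. *Traf1*, which was not called against α4β7+ in CD22+ eosinophils, was called lower there when CD22+ replicate 4 was left out (log2 fold change -1.17, limma adjusted p = 0.033).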

How the results depend on the processing

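Of the 30 gene calls, 28 held under all 21 alternatives run for each and none changed direction. The exceptions were *Map3k8* in CD22+ against α4β7+, lost in 5 of the fits that left out a library, and *Relb* in α4β7− CD22− against α4β7+, lost in 2. Of 21 calls of the 11 named pathway and target genes, 18 held throughout, and the others were *Il1r2* and *Cxcl1* in CD22+ against α4β7+, each lost once, and *Il6* in CD22+ against α4β7− CD22−, lost in 9. *Traf1*, not called in α4β7− CD22− against α4β7+, was called lower under 5 alternatives, and in CD22+ against α4β7+ without CD22+ replicate 4. *Cd40* was called higher in α4β7− CD22− against α4β7+ without α4β7− CD22− replicate 1 (log2 fold change 0.68, limma adjusted p = 0.046). With the adjusted p alone, 5 members rather than 3 were higher in α4β7− CD22− against α4β7+, 7 rather than 4 in CD22+ against α4β7+, and 4 rather than 1 lower in CD22+ against α4β7− CD22−.

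With each library left out in turn, the members called lower numbered 9 to 11, 12 to 13 and 1 to 2 in α4β7− CD22− against α4β7+, CD22+ against α4β7+ and CD22+ against α4β7− CD22−, and the members called higher 3 to 4, 3 to 4 and 0. The median log2 fold change of subunits, inhibitors and feedback genes ranged from -0.58 to -0.53, from -0.90 (without α4β7+ replicate 2) to -0.77, and from -0.24 to -0.11 (without CD22+ replicate 3), and that of kinases and adaptors from 0.0015 to 0.076, from -0.015 to 0.079 and from -0.064 to 0.010. Neither rescaling nor quantile normalization moved a class median by more than the spread between replicates.

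With the replicate number as a block (paired fit), the counts stayed at 10 lower and 3 higher, 12 lower and 4 higher, and 1 lower and 0 higher, and no member's call changed. In the comparisons with α4β7+, pairs of libraries with the same number had correlations of 0.043 to 0.137 (α4β7− CD22−) and -0.059 to 0.182 (CD22+), not all above 0.1, so the numbers were not taken to pair these libraries. The labelled pairing had the highest mean correlation of the 24 possible for α4β7− CD22− and ranked 8th for CD22+. The lowest value of any member in any library was 27.5 normalized counts, and about 3 reads correspond to 2.56 to 3.48, so no member lay near the limit of detection. *Il6* in CD22+ libraries and *Cxcl1* in some libraries did.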
